A study of Mus musculus with 4 samples.

Results

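Laminin chains and integrin subunits, the basement membrane proteins and the receptors that hold cells to them, were followed across 4 mouse skin arrays. The genes were chosen by symbol, as laminin chain genes (Lama, Lamb or Lamc plus a number) and integrin subunit genes. The set covered 36 genes, 10 laminin chains and 26 integrin subunits. Of these, 32 had a usable probe, 9 laminin chains and 23 integrin subunits, among 16862 genes usable on all 4 arrays. Lama3, Itga10, Itgad and Itgb8 were not analysed here. A gene with several probes was read from its brightest one, and 11 of the 32 genes had 2 or more.

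The arrays came from a study of a photodynamic treatment, in which a photosensitiser in the skin, once lit, forms reactive oxygen species. The 4 groups were treated tail skin, control tail skin, treated back skin and control back skin, with 3 animals in each by the study design and RNA taken 48 h after treatment. Treated skin received a cream of methyl aminolevulinate (Metvix), a precursor of the light-absorbing protoporphyrin IX, then 2.5 h of darkness and red light of 636 nm. Tails received 10 J/cm2 of this light and backs 2.5 J/cm2, so skin site and dose cannot be told apart. Backs were shaved, and the labels give the controls no treatment. Strain, sex and age of the mice are not given in the sources used here. The labels speak of tail skin but the extraction protocol of tail epidermis, so how much dermis the tail samples held is uncertain.

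Each group was measured on 1 array, and the sources used here do not say whether the 3 animals were pooled. No difference therefore has a replicate check, and no test was made. Levels are log2 signals relative to the 75th percentile of the same array, so that 0 is the level of a probe at that percentile. A difference is the level on one array minus that on another, and genes at least 2-fold apart are called higher or lower. The scanner's own error of a difference had a median of 0.206 over these genes in the tail and 0.205 in the back, which covers the spots and not the animals. A probe that was saturated, or too dim to stand well above background, on 1 array of a pair gives just a bound, written as "at least". The 75th percentile itself was 909 signal units on the treated tail array, 7261 on the control tail array, 1204 on the treated back array and 1860 on the control back array. The control tail array was thus by far the brightest, and 2 of the 32 genes were saturated on it. The basal keratins Krt5 and Krt14 were saturated on all 4 arrays, so epidermis was present in each sample, but their levels could not be compared. In tissue RNA, fewer cells of a type and less RNA per cell cannot be told apart.

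A laminin is a cross-shaped trimer of an alpha, a beta and a gamma chain that polymerises into the sheet under every epithelium and around vessels, muscle fibres and nerves. Integrins are dimers of an alpha and a beta subunit that span the membrane, bind laminin, collagen, fibronectin or surface proteins of other cells, and connect to the cytoskeleton inside. In skin, a laminin that contains the Lamb3 product is held by the Itga6 and Itgb4 dimer in hemidesmosomes, and by the Itga3 and Itgb1 dimer in focal contacts. Basal keratinocytes at a wound edge are known to switch on laminin chains and integrins as they migrate.

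Of these genes, 5 were lower in the treated tail and higher in the treated back: the integrin subunits Itgb1, Itga3 and Itga6 and the laminin chains Lamb1 and Lamb3. RefSeq windows of the 250 bases before an annotated start, in assembly GRCm38.p6, were available for 21 of the 32 genes and for 4 of these 5. The windows of these 4 genes are shown 5′ to 3′ because they precede genes whose RNA moved together. Capitals mark the GC box GGGCGG on either strand, the element bound by Sp1. Where a gene had several starts, the window of the most 5′ one is given. The Itga3 window lies at chr11:95076715-95076964 on the minus strand, the Itgb1 window at chr8:128685404-128685653, the Lamb1 window at chr12:31265043-31265292 and the Lamb3 window at chr1:193301744-193301993, all on the plus strand except Itga3.
Itga3: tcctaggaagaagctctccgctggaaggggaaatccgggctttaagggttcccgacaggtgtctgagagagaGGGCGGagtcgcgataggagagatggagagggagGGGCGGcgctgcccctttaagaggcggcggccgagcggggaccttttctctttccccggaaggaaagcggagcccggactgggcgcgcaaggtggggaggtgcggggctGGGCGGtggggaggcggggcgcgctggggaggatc
Itgb1: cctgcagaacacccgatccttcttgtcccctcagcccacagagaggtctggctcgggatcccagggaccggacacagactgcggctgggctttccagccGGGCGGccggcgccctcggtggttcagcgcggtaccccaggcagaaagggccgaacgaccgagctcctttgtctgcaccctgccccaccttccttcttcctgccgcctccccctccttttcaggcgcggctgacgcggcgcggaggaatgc
Lamb1: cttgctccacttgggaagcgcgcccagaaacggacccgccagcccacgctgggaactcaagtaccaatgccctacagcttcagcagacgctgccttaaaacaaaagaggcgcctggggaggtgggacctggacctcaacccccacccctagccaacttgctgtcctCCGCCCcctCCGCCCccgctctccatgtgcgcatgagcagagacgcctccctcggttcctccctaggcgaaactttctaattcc
Lamb3: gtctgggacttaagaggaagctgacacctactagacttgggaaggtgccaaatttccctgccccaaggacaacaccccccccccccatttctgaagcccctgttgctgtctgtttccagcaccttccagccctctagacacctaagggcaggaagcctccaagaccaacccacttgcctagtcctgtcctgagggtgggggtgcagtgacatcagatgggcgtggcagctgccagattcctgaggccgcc
The Itga3 window held 3 GC boxes, at 178, 144 and 35 bases before the start, and the Itgb1 window held 1 at 151 bases. Lamb1 had 2, both on the other strand, at 84 and 75 bases, and the Lamb3 window had 0. Over all windows of the laminin and integrin genes the GC box was found in 9 of 24, or 37.5%, against 32.7% of the 32851 windows in the table. The TATA box TATAAA was found in 0 of 24, against 12.4% of all windows. The AP-1 element TGANTCA was found in 1 of 24, that of Itgax, against 6.75% of all windows. The cyclic AMP element TGACGTCA was in 0 of 24, against 1.55% of all, and the antioxidant element TGACNNNGC in 3 of 24, those of Itga9, Itgb1 and Itgb6, against 10.2%. Both strands were searched, and matches to different elements were counted apart even where they overlapped. These matches describe the letters only.

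The first comparison asked how the tail differed 48 h after treatment. Of the 32 genes, 27 had a value, all measured on both arrays. In the treated tail, 7 of the 27 (25.9%) were lower, against 6.55% of all genes with a value, and 7 (25.9%) were higher, against 27.2%. The lower genes were Itgb1, Itga6, Itga3, Lamb1, Lamb3, Lamc1 and Itgav, the last with the reverse sign under normexp background correction. The higher ones were Itga1, Itgal, Lamc3, Itga11, Itgb2, Itgb3 and Lama4, the last 4 with the reverse sign when arrays were scaled to spike-in controls. The median difference was 0.12, against 0.33 over all 12858 genes with a value. The split depended on the scaling, with 5 higher and 9 lower of 28 after quantile normalization and of 27 after cyclic loess. It was 16 and 5 of 27 with normexp, and 1 and 21 of 30 with spike-in scaling. The shares of all genes moved too, with 15.7% higher and 10.9% lower after quantile normalization and 14.4% and 12.0% after cyclic loess. They were 44.3% and 4.04% with normexp, and 0.953% and 71.2% with spike-in scaling. The genes that normexp moved from within 2-fold to higher in the tail were Itga2, Itga2b, Itga4, Itga5, Itga7, Itga8, Itgae, Itgax and Itgb7, with differences between 2.12 for Itga5 and 4.73 for Itga7.

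In the back, at the lower light dose, more of these genes were higher. Of 29 genes with a value, 14 (48.3%) were higher in the treated back, against 13.6% of all genes with a value. Only Itgae was lower, 3.45% of these genes against 12.6% of all. The higher genes were Itga2, Itga3, Itga5, Itga6, Itga7, Itgam, Itgb1 and Itgb4 among the integrins. Among the laminins they were Lama1, Lama4, Lama5, Lamb1, Lamb3 and Lamc3. The median difference was 0.997, against -0.01 over all 13461 genes with a value. Spike-in scaling left 10 genes higher and 3 lower, against 6.37% and 25.5% of all genes. The median with spike-in scaling was 0.52, against -0.47 over all genes.

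The plot of tail against back differences shows how the genes fell. Of 26 genes with a value in both skins, 5 (19.2%) were lower in the treated tail and higher in the treated back, against 0.989% of the 12038 genes with a value in both. By their brightest probes, Lama4 and Lamc3 were higher in both, 7.69% of the 26 against 3.72% of all. Of the 26, 0 were lower in both, against 1.21% of all, and 0 were higher in the tail and lower in the back, against 2.88%. Another 7 of the 26, or 26.9%, were within 2-fold in both skins, against 51.4%.

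**Figure D1:**
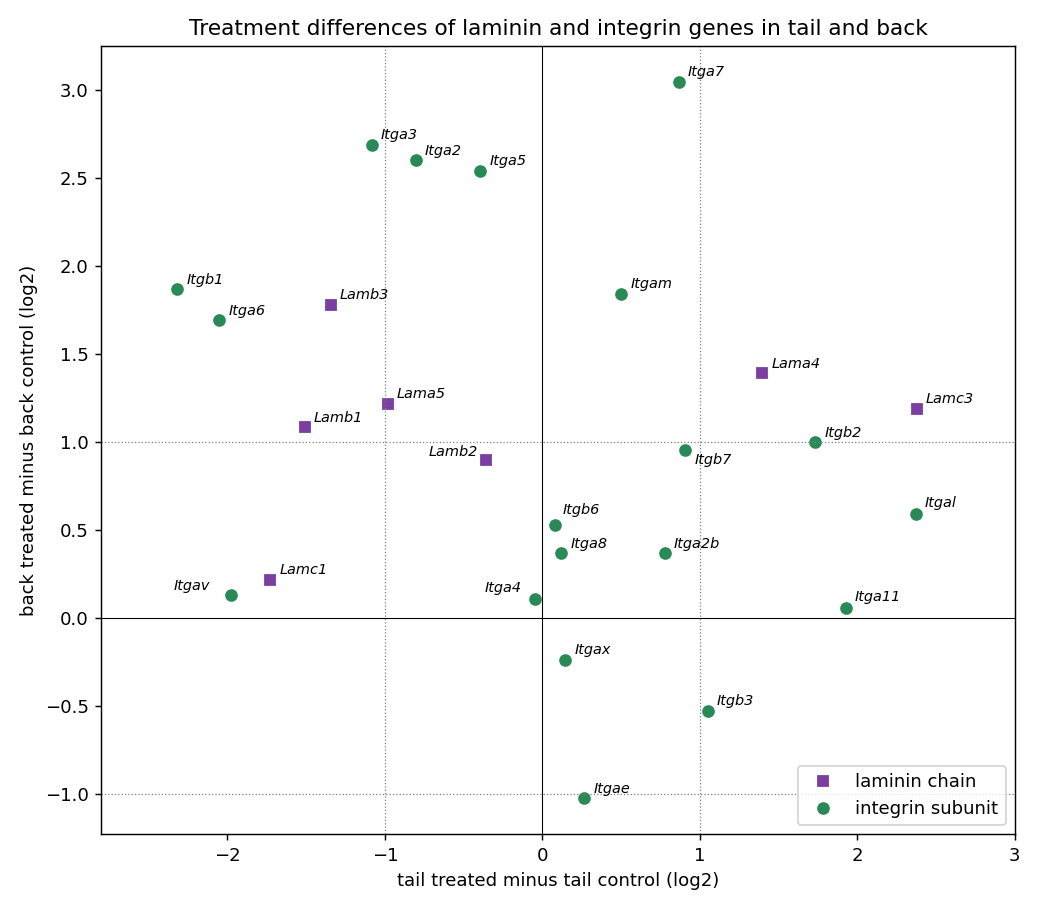
Difference of treated minus control in the tail (horizontal axis, log2) and in the back (vertical axis, log2) for the 26 laminin and integrin genes with a value in both skins, 1 array per group. Dotted lines mark 2-fold. The 5 genes at the upper left, from Itgb1 to Itga3, were lower in the treated tail and higher in the treated back, and Lama4 and Lamc3 lie at the upper right, Lama4 turning to -0.66 in the tail with spike-in scaling.

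Among the laminins, Lamb3 and Lamb1 were lower in the treated tail and higher in the treated back. Lamb3, the beta chain of the epidermal basement membrane laminin held by hemidesmosomes, stood at -0.44 in the treated and 0.91 in the control tail, and at 2.47 in the treated and 0.69 in the control back. The differences of Lamb3 were -1.34 and 1.78, or 2.54-fold lower and 3.43-fold higher. The treated back was the highest of the 4 arrays and the treated tail the lowest, while the control skins differed by -0.22.

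The chains of the broadly used laminins moved in part with it. Lamb1, the beta chain of most vessel and embryonic laminins, was at -1.22 in the treated and 0.29 in the control tail, and at -0.95 in the treated and -2.03 in the control back. It was 2.84-fold lower in the treated tail and 2.12-fold higher in the treated back, though with normexp its tail and back differences were -0.87 and 0.96, both under 2-fold. Lamc1, the gamma chain shared by most laminins, was at -0.41 in the treated and 1.31 in the control tail, a 3.31-fold lower level. In the back Lamc1 was at 0.50 in treated and 0.29 in control skin, a difference of 0.22. Lama5, the alpha chain of the adult epidermal and vascular laminins that contain Lamc1 product, was at 2.10 in the treated and 3.09 in the control tail, and at 3.21 in the treated and 1.99 in the control back. Its difference was 1.22 in the back, or 0.74 with spike-in scaling, and -0.98 in the tail, just under 2-fold. In the tail it passed 2-fold with normexp at -1.48, after quantile normalization at -1.33, after cyclic loess at -1.64 and with centring on the median of detected probes at -1.02, and in these 4 it was also at least 2-fold higher in the treated back. With spike-in scaling its tail difference was -3.04. Lamb2, a beta chain of muscle synapses, kidney and vessels, differed by -0.36 in the tail and 0.90 in the back.

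Lama4 and Lamc3 ran differently. Lama4, the alpha chain of vessel and fat laminins, was at -3.90 in the treated and -5.29 in the control tail, and at -2.58 in the treated and -3.98 in the control back. It was 2.63-fold and 2.62-fold higher in the treated skins. The Lama4 tail difference of 1.40 was 0.81 after quantile normalization, 0.91 after cyclic loess and -0.66 with spike-in scaling, and its other probes gave 0.37 and 0.71. Lamc3, a gamma chain known from retina and peripheral nerve, was at -1.98 in the treated and -4.35 in the control tail, a 5.20-fold difference, and at -1.62 in the treated and -2.81 in the control back. The Lamc3 differences were 2.38 and 1.19, or 0.32 and 0.71 with spike-in scaling. Its second probe does not show these rises. That probe was well above background in both control skins, at -7.90 in the tail and -6.20 in the back, but dim in both treated skins. The lowest level well above background was -6.47 on the treated tail array and -6.12 on the treated back array. Markers of endothelium, the main known source of Lama4, were higher in 5 of 5 cases with a value in the treated tail, or 1 of 6 with spike-in scaling, and in 3 of 6 in the treated back. Their summed level, with 75th percentile signal as 1, was 0.41 on the treated tail array, 0.10 on the control tail array, 0.30 on the treated back array and 0.17 on the control back array. Tek was not well above background on any array and Kdr only on the control tail array, while Pecam1 and Cdh5 were above it on all 4. The part of vessels in the Lama4 values was not tested.

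Lama1 and Lama2, the alpha chains of early embryonic and of muscle laminin, were near or under the detection limit. Lama1 was above background only on the treated back array, where it was at least 3.32-fold higher than in the control back. Its signal there was 42.7 units. Lama2 was not well above background on any array.

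**Figure D2:**
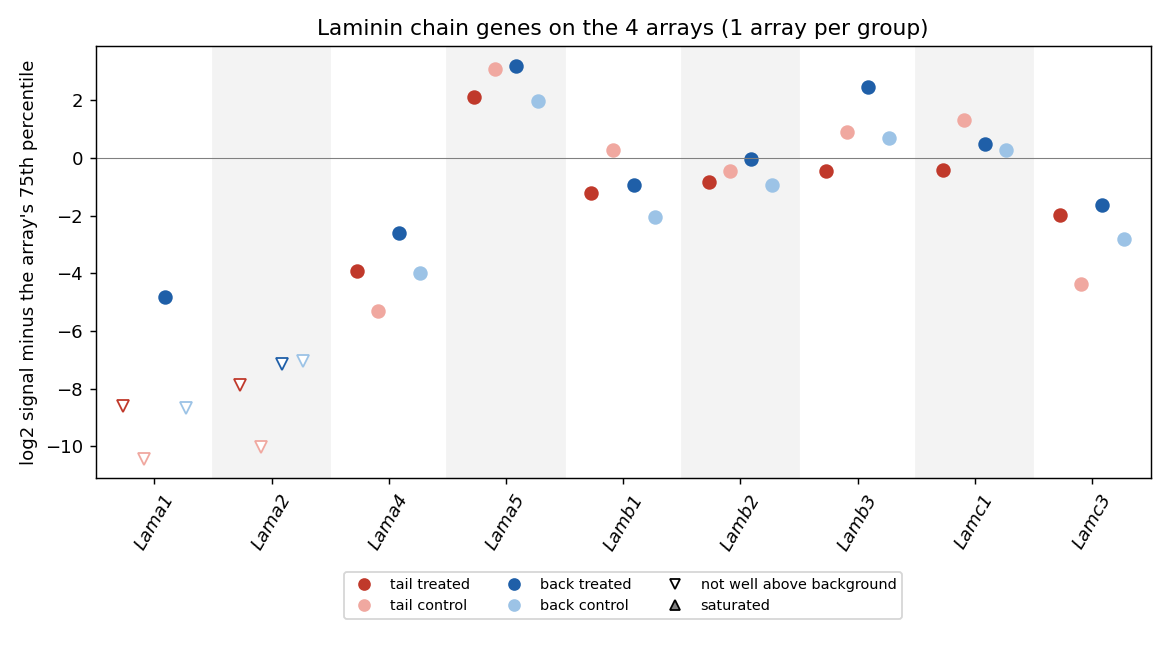
Levels of 9 laminin chain genes on the 4 arrays (vertical axis, log2 signal minus the 75th percentile of the array). Filled circles are well above background, open triangles are not, and each point is 1 array. Levels of different genes come from different probes and are not comparable; within Lamb3 the treated back is the highest point and the treated tail the lowest.

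The laminin receptor subunits Itgb1, Itga6 and, by its brightest probe, Itga3 had the same pair of directions as Lamb3. Itgb1, the beta subunit shared by most matrix-binding integrins, was at -1.90 in the treated and 0.42 in the control tail, and at 2.74 in the treated and 0.87 in the control back. It was 4.98-fold lower in the treated tail and 3.64-fold higher in the treated back, and its other probe gave -2.70 and 2.12. Itga6, the alpha subunit of hemidesmosomes, was at 0.38 in the treated and 2.43 in the control tail, and at 3.42 in the treated and 1.73 in the control back. That made it 4.15-fold lower in the treated tail and 3.22-fold higher in the treated back. Itga3, which pairs with Itgb1 product to bind the same laminin, was at -0.94 in the treated and 0.15 in the control tail, and at 2.51 in the treated and -0.18 in the control back. Its back difference of 2.69 was 6.44-fold. Its tail difference of -1.08 was the least settled of these, since the other 2 probes gave -1.89 and 0.79 and the mean of the 3 was -0.73.

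Itgb4, the partner of Itga6 product in hemidesmosomes, was saturated in places. Its level was 4.51 in the treated tail, against a saturated 3.10 in the control tail, which gave no value. In the back it was saturated at 5.78 in treated skin and was unsaturated at 3.46 in control skin, so at least 2.32 higher on the log2 scale, and its unsaturated second probe was 2.43 higher. Itga7, the laminin receptor of muscle fibres and of some nerve and smooth muscle cells, was low in the tail, at -5.96 in treated and -6.83 in control skin. In the back it was at 1.60 in treated and -1.45 in control skin, an 8.25-fold higher level. Of skeletal muscle markers 3 of 6 stood higher in the treated back and 0 lower, led by Myh1 at 2.99. Their summed level was 0.83 in the treated and 0.90 in the control back, and the muscle kinase Ckm and the actinin Actn3 were not well above background on either array. Of smooth muscle and pericyte markers 0 of 5 were higher and 2 lower in the treated back, with summed levels of 3.17 in treated and 2.28 in control skin. The part of muscle in the Itga7 values was not tested.

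Among the subunits of collagen and fibronectin receptors, Itga2 and Itga5 were higher in the treated back and Itga1 and Itga11 in the treated tail. Itga2, the collagen receptor subunit of migrating keratinocytes, was at -1.18 in the treated and -3.78 in the control back, a 6.06-fold difference, and its second probe gave 2.57. In the tail it was at -5.43 in treated and -4.63 in control skin, a difference of -0.81, and its second probe, dim in treated skin, gave a bound of -1.15. That tail difference was -1.46 after quantile normalization, -1.26 after cyclic loess, -2.87 with spike-in scaling and 3.34, the reverse sign, with normexp. Itga5, the fibronectin receptor subunit, was at 0.03 in the treated and -2.51 in the control back, a 5.82-fold difference, and differed by -0.39 in the tail, or 2.12 with normexp and -2.45 with spike-in scaling. Both pair with the Itgb1 product. Itga11, the collagen receptor of fibroblasts, was 3.80-fold higher in the treated tail, at -1.12 in treated and -3.05 in control skin, and differed by 0.06 in the back. With spike-in scaling its tail difference was -0.13. Fibroblast markers were higher in 3 of 5 cases in the treated tail, led by Col3a1 at 1.78, with summed levels of 3.32 in treated and 1.55 in control skin. With spike-in scaling 0 of 5 were higher and 2 lower, and Col3a1 was at -0.28. Pdgfra was not well above background on either tail array, and the part of fibroblasts in the Itga11 values was not tested.

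Itga1, another collagen receptor subunit, had a 13.7-fold higher level in the treated tail, but its signals were only 46.8 units in treated and 27.2 in control skin. This difference of 3.78 was 1.72 with spike-in scaling. Its 2 probes gave no value in the same skins, since the brighter was not well above background on either back array and the other was not on the treated tail array. That other probe was well above background in the control tail, at -8.20, and does not show the rise. The lowest level well above background on the treated tail array was -6.47. Itgav, the alpha subunit of vitronectin and TGF-beta activating integrins, was at -4.48 in the treated and -2.5 in the control tail, a 3.94-fold lower level. With normexp this difference was 1.51, the reverse sign, and in the back Itgav differed by 0.13. Of the partners of Itgav, Itgb5 and Itgb6 differed by -0.79 and 0.53 in the back, and Itgb6 by 0.08 in the tail. The other probes of Itgb6 gave 1.08 and 0.97 in the back, and -0.24 and -0.37 in the tail. Itgb5 was at 5.20 in the treated tail and saturated at 3.22 in the control tail, which gave no value. Itga8, a receptor subunit for nephronectin, differed by 0.12 in the tail and 0.37 in the back.

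**Figure D3:**
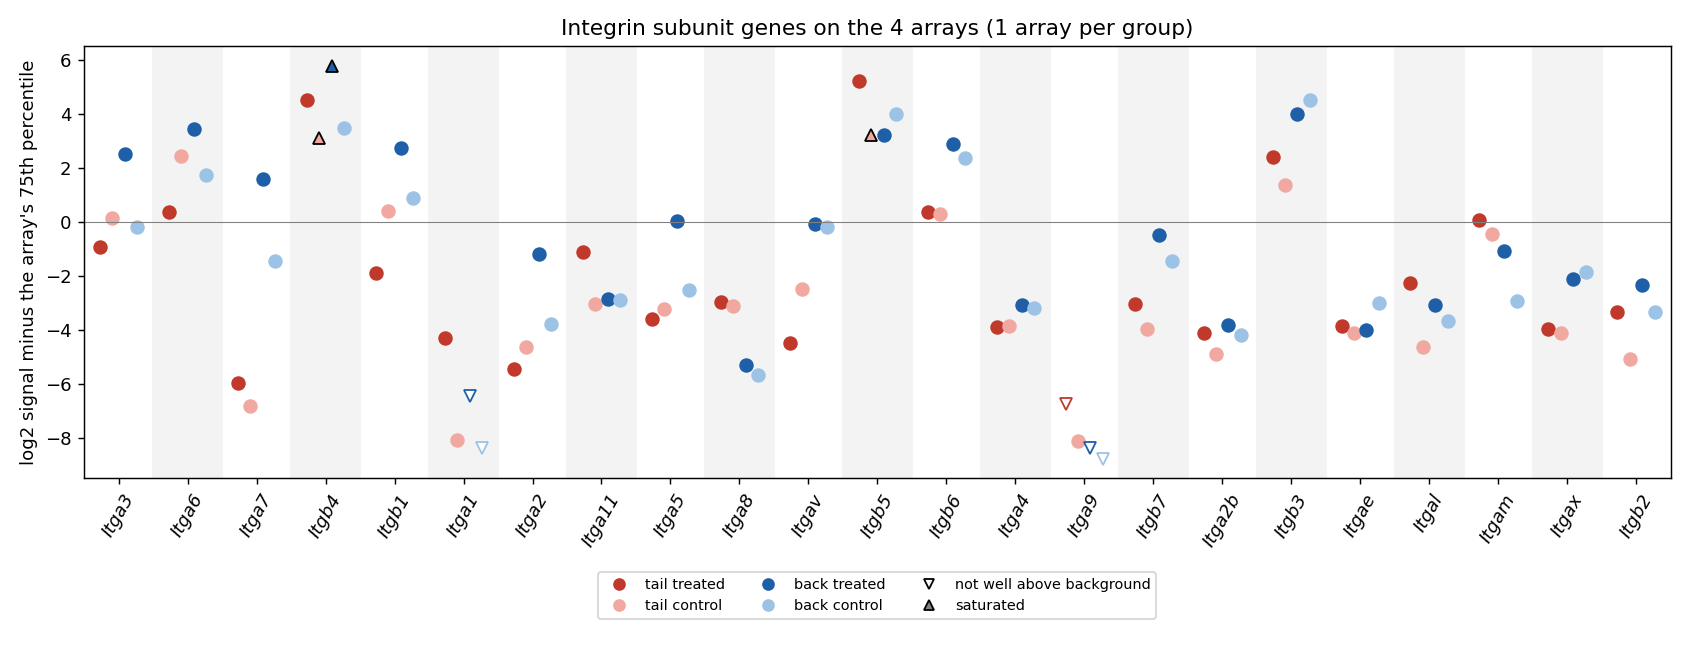
Levels of 23 integrin subunit genes on the 4 arrays (vertical axis, log2 signal minus the 75th percentile of the array), ordered by ligand class from laminin receptors to leukocyte subunits. Each point is 1 array; open triangles are not well above background and black-edged triangles are saturated. Itgb1, Itga3 and Itga6 are lowest in the treated tail and highest in the treated back.

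Leukocyte subunits differed by skin and by member. Itgb2, the common beta subunit of leukocytes, was at -3.35 in the treated and -5.09 in the control tail, a 3.33-fold higher level, and at -2.34 in the treated and -3.33 in the control back, where the difference of 0.997 was just under 2-fold. Itgal, its partner on lymphocytes, was 5.18-fold higher in the treated tail, at -2.25 in treated and -4.62 in control skin, and differed by 0.59 in the back. With spike-in scaling the tail differences were -0.33 for Itgb2 and 0.31 for Itgal. Itgam, the partner on neutrophils and macrophages, was 3.58-fold higher in the treated back, at -1.08 in treated and -2.92 in control skin, and its second probe, dim in control skin, was at least 1.18 higher. In the tail Itgam differed by 0.50. Itgae, which holds T cells to epithelial E-cadherin, was at -4.02 in the treated and -2.99 in the control back, a difference of -1.03. That back difference was -0.99 after cyclic loess and -0.44 with normexp. In the tail Itgae differed by 0.27. Itgax, a dendritic cell and macrophage subunit, differed by 0.15 in the tail and -0.24 in the back. Itga4, a VCAM-1 receptor subunit, and its partner Itgb7 were within 2-fold in both skins, and Itga9 was well above background only on the control tail array.

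Leukocyte markers differed by list and by skin. In the treated back, macrophage and monocyte markers were higher in 4 of 6 cases, with a summed level of 8.49 in treated and 2.77 in control skin, and neutrophil markers in 4 of 6 cases, with 109 and 42.7. Cd163 was not well above background in the control back, and Camp and Elane in neither back sample. For T and NK cells, 3 of 6 markers were lower in the treated back, with summed levels of 0.54 in treated and 3.64 in control skin, and Ncr1 was dim on all 4 arrays. In the treated tail, neutrophil markers were higher in 5 of 6 cases, with sums of 144 in treated and 8.63 in control skin, and Camp and Csf3r were dim in both tail samples. Of the higher neutrophil markers, 3 in the tail and 3 in the back were bounds. S100a8, saturated on both treated arrays, and S100a9, saturated on the treated tail array, entered the sums as read. T and NK cell markers were higher in 2 of 7 cases in the treated tail, with sums of 1.78 and 0.76. Of general leukocyte markers 0 of 4 were higher in either treated skin, and Ptprc was lower in the treated tail, at -1.18. The sums of these 4 markers were 0.69 in the treated and 0.61 in the control tail, and 2.41 in the treated and 2.52 in the control back. With spike-in scaling 3 of 7 neutrophil markers were higher and 2 lower in the treated tail, and 0 of 7 T and NK cell markers were higher and 5 lower. The part of leukocyte numbers in these values was not tested.

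Itga2b and Itgb3, the subunits of the platelet fibrinogen receptor, were within 2-fold in the back, and Itgb3 was just above it in the tail. Itgb3, the beta subunit of the fibrinogen receptor, was at 2.40 in the treated and 1.35 in the control tail, and at 3.98 in the treated and 4.51 in the control back. The Itgb3 tail difference of 1.05 was 0.25 after cyclic loess and -1.01 with spike-in scaling. Itga2b, its platelet partner, was at -4.11 in the treated and -4.89 in the control tail. In the back Itga2b was at -3.82 in treated and -4.19 in control skin. It differed by 0.78 in the tail and 0.37 in the back. Platelet and megakaryocyte markers were higher in 7 of 7 cases in the treated tail, led by Ppbp, at least 4.44 higher, and Pf4 at 3.44, or in 3 of 7 with spike-in scaling. Their sums were 1.77 in the treated and 0.32 in the control tail, and 8.22 in the treated and 0.80 in the control back, where 4 of 6 were higher and Gp1ba was dim in both samples. Itgb3 itself differed by -0.53 in the back. The part of platelets in the Itgb3 values was not tested.

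Untreated back and tail skin were then compared. In control back skin 10 of 26 genes with a value (38.5%) were higher than in control tail skin, against 27.4% of all genes, and 5 (19.2%) were lower, against 17.2%. The split was 8 higher and 7 lower after quantile normalization, and 6 and 9 with spike-in scaling. Of all genes 19.0% were higher and 21.5% lower after quantile normalization, and 11.2% and 36.9% with spike-in scaling. Itga7 had the widest gap, with -1.45 in the back and -6.83 in the tail, or 41.8-fold. Itgb3 was 8.97-fold, Itgb7 5.67-fold, Itgav 4.95-fold, Itgax 4.68-fold and Itgb6 4.21-fold higher in the control back. The Itgb6 difference was 2.07 by its brightest probe, and its other probes gave 1.39 and 0.98. Of the 5 genes lower in the control back, Itga8 differed by -2.57, Itgam by -2.48, Lamb1 by -2.32, Lama5 by -1.09 and Lamc1 by -1.02. General leukocyte markers were higher in 4 of 4 cases in the control back. T and NK cell markers were higher in 6 of 6, with sums of 3.64 in the back and 0.76 in the tail. Macrophage and monocyte markers were higher in 5 of 5 cases, 1 as a bound, although Itgam was lower. Neutrophil markers were higher in 3 of 5 cases, 2 as bounds, and lower in 0. The genes Lamb3, Itga3, Itga6 and Itgb1 were all within 2-fold between the control skins. With spike-in scaling 3 of these passed it, Itga6 at -1.51, Itga3 at -1.14 and Lamb3 at -1.03, and Itga6 was also at -1.01 after quantile normalization and -1.18 after cyclic loess. This comparison uses the same control arrays as the treatment comparisons, so its values are not independent of them.

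Proteins that work with integrins and laminins inside and outside the cell were read from lists. In the treated back 11 of 30 integrin activators and adapters (36.7%) stood higher, against 13.6% of all genes, and Kank2 was lower at -1.11, or -0.52 with normexp. The median of that list was 0.42, and spike-in scaling left 6 higher and 4 lower, against 6.37% and 25.5% of all genes. The higher genes included the focal adhesion kinase Ptk2 at 2.53, the kindlin Fermt1 at 2.30, the parvin Parva at 2.16 and the endocytic adapter Dab2 at 2.14, each at least 2-fold higher under all 4 other scalings. In the treated tail just 4 of 31 (12.9%) were higher and 5 (16.1%) lower, against 27.2% and 6.55% of all genes. The tail median was -0.29. Normexp gave 11 and 1, against 44.3% and 4.04% of all genes. Spike-in scaling gave 0 of 32 and 28, against 0.953% and 71.2%. In the treated tail Lims2 was 2.53 and Apbb1ip 2.49 higher, and Nedd9 differed by -2.25, or 0.54 with normexp.

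Matrix ligands of integrins were higher in 4 of 13 cases in the treated back (30.8%, against 13.6% of all genes), and 1 was lower at -1.09. The higher ones were led by osteopontin Spp1 at 4.87 and tenascin Tnc at 3.92, followed by the thrombospondin Thbs2 at 2.16. In the treated tail 6 of 13 (46.2%) were lower and 5 (38.5%) higher, against 6.55% and 27.2% of all genes. The matricellular ligand Ccn1, saturated on the control tail array, had a bound of -5.59 there and was lower under all 4 other scalings. Thbs1 differed by -2.62, or -0.80 with normexp. Tnc at -2.22 and Thbs2 at -2.53 had the reverse sign with normexp, 0.05 and 0.59. Of the pathway lists, the opposite pattern of lower in the treated tail and higher in the treated back was met by 3 of 30 activators and adapters with values in both skins, Parva, Rsu1 and Tns3, and by 3 of 10 matrix ligands, Tnc, Thbs2 and Tgfb1. No gene of the other 6 lists met it. Over all 12038 genes with a value in both skins, 0.989% did. With normexp 0 of these 6 genes stayed at least 2-fold lower in the tail, and Tgfb1 was at 1.57.

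Basement membrane partners were mixed. In the treated tail 4 of 19 (21.1%) stood higher and 8 (42.1%) lower, against 27.2% and 6.55% of all genes. With normexp it was 10 of 18 and 2, against 44.3% and 4.04%. In the treated back 7 of 21 (33.3%) stood higher and 5 (23.8%) lower, against 13.6% and 12.6%. The largest tail differences were those of lower genes, Frem2, Col4a6 at -2.79, Egfl6 at -2.76 and Col4a5 at -2.20. The 4 higher genes reached at most 2.14. In the back the largest were Tinagl1 at 2.59, Fbln2 at 2.08 and Fbln1 at 2.00. Nid1, which ties laminin to collagen IV, was 1.87 higher in the treated back, and its tail difference of 1.73 was -0.33 with spike-in scaling. Frem2, of the epidermal basement membrane, differed by -3.61 in the tail and -1.31 in the back, or -0.73 and -0.96 with normexp.

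The 5 genes that moved in opposite directions were followed through every alternative way of processing. Itgb1, Itga6 and Lamb3 stayed at least 2-fold lower in the treated tail in 11 of 11 alternatives, and at least 2-fold higher in the treated back in 11 of 11. Itga3 was at least 2-fold lower in the tail in 9 of 11 and Lamb1 in 10 of 11. In the back Itga3 was higher in 11 of 11 and Lamb1 in 9 of 11. The filters (measured on both arrays only, no filter, signal of at least 200) could not change a measured value. The mean of probes could not for Itga6, Lamb1 and Lamb3, with 1 probe each. Centring on the median of detected probes shifted values by only -0.042 in the tail and -0.060 in the back. Keeping outlier spots or using the authors' values moved them less. The counts rest mainly on normexp, quantile normalization, cyclic loess and spike-in scaling. The lowest and highest tail differences without spike-in scaling were -2.51 and -1.18 for Itgb1, -2.53 and -2.05 for Itga6, and -1.5 and -1.06 for Lamb3.

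**Figure D4:**
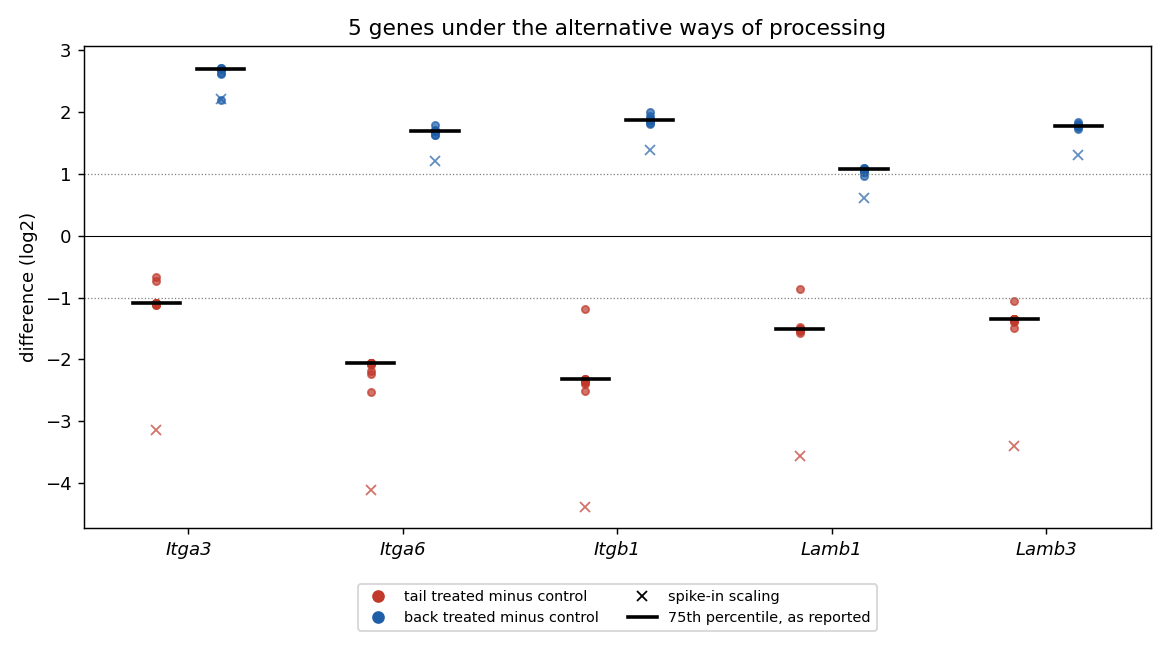
Difference of treated minus control (vertical axis, log2) for the 5 genes lower in the treated tail and higher in the treated back, in the tail (red) and the back (blue), 1 array per group. Black bars are the reported values, circles the other ways of processing and crosses spike-in scaling, which lowers every tail difference by 2.06 and every back difference by 0.476. All points of a gene in the tail lie below 0 and all in the back above it.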

How the data were processed

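Cy3-labelled RNA of 4 samples (200 ng each, per the labels' protocols) was hybridised to 4 one-colour Agilent arrays on 1 slide, so a group and its place on the slide cannot be told apart. Per the file headers, Feature Extraction 10.5.1.1 made the deposited processed signal, an intensity per spot after background correction; the submitters' processing notes name 10.7. The authors' deposited table holds log2 values centred per probe. Its differences between arrays matched those of the processed signals, up to a constant, within 0.01 for at least 99.98% of probes. Its column medians were 0.099 in treated tail, -0.28 in control tail, 0.084 in treated back and -0.031 in control back, and how it was centred is not given in the sources used here.

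Each signal was put on the log2 scale relative to its array's 75th percentile, taken over all probes but controls. Outlier spots were dropped and repeated spots averaged. Accessions gave 24375 of 41174 probes a symbol in RefSeq's GRCm38.p6 table. The files name build mm8, so none of their coordinates is used. A gene dim or saturated on both arrays, or whose difference ran against its bound, had no value. With no replicates there was no test, and the number of arrays limits the precision. For genes called in a treatment comparison, levels or differences are given, not always as levels on all 4 arrays. Their partners are given by levels, by differences or as within 2-fold. Of each list up to 4 genes with the largest differences are named. Other list genes were named after their values were seen. Of the symbol rule, 1 gene is not reported here and enters no member count. The members, the 8 pathway lists and the 16 marker lists were chosen with earlier results of these data known. The 12 alternatives used R 4.3.3, limma 3.58.1 and Python 3.11.15.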

Additional observations from a re-analysis of the deposited data

Results flagged for a closer look

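In 5 genes, by their brightest probes, the response to treatment had opposite signs in the skins, each at least 2-fold. The difference between the responses, back minus tail on the log2 scale, was 4.18 for Itgb1, 3.77 for Itga3, 3.74 for Itga6, 3.12 for Lamb3 and 2.59 for Lamb1. The other probes of Itga3 gave -1.89 and 0.79 in the tail. Itga2 at 3.40 and Itga5 at 2.93 had wider gaps than Lamb1, with tail differences under 2-fold. With 1 array per group these differences between responses were not tested. The skins also differed in light dose, so site and dose cannot be told apart.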

How the results depend on the processing

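The arrays' brightness is the main limit. Moving from the 75th percentile to spike-in controls lowers every tail difference by 2.06, every back difference by 0.476 and every difference of the control skins by 0.809, and the spike-in level rested on 6 probes. It gave 1 gene higher and 21 lower in the tail with a median of -1.85, 10 higher and 3 lower in the back with a median of 0.52, and 6 higher and 9 lower between control skins with a median of -0.10. Of all genes 0.953% were higher and 71.2% lower in the tail with spike-in scaling. In the back these shares were 6.37% and 25.5%, and between control skins 11.2% and 36.9%. Spike-in scaling turned the tail differences of Itga11 to -0.13, Itgb2 to -0.33, Itgb3 to -1.01 and Lama4 to -0.66. With normexp 16 genes were higher in the tail (median 2.18) and 0 lower in the back, and Itgav turned to 1.51 in the tail. Of all genes 44.3% were higher in the tail and 9.26% lower in the back with normexp. The normexp offset of 50 is a larger part of the signal on the dimmer treated arrays. Normexp also started from median spot and background signals rather than the processed signal. The part of each in its shifts was not tested. The tail median was -0.26 after quantile normalization, -0.24 after cyclic loess and -0.98 with a signal of at least 200. That last setting left 3 higher genes, and 12 were higher without a filter (median 0.38). Of all genes 15.4% were higher in the tail with a signal of at least 200, and 37.0% without a filter. The back had 0 lower genes after cyclic loess and with a signal of at least 200. It had 2 at a 1.5-fold threshold, for which the share of all genes is not given here. Of all genes 12.7% were lower in the back after cyclic loess, and 11.7% with a signal of at least 200. Between control skins the median was 0.39 after quantile normalization, 0.50 after cyclic loess and 0.45 with a signal of at least 200. The median of all genes moved by -0.29 in the tail after quantile normalization, by -0.40 after cyclic loess and by 0.30 with normexp. Except where construction is named, the cause was not tested.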

Other observations

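Of hemidesmosome partners, Plec, which links the integrin to keratin, was 1.38 lower in the treated tail and differed by 0.45 in the back, Dst differed by -0.07 and -0.24, and Krt5 and Krt14 were saturated on all 4 arrays and Col17a1 on 3. Of other laminin receptors 1 of 8 was lower in the treated tail (Sgcd at -1.32, or 1.94 with normexp) and 1 of 10 higher in the treated back (Sgcb at 1.31). Among laminin-processing proteases 0 of 3 passed 2-fold in the tail, and in the back Mmp14 was 1.33 higher and Mmp2 differed by -1.01. Of tetraspanins 1 of 4 was higher and 1 lower in the tail, and they were within 2-fold in 4 of 4 cases in the back. Of surface ligands of leukocyte integrins 6 of 10 were higher and 2 lower in the treated tail, with C3 at 2.91 and Icam1 at -3.67, or 0.03 with normexp, and higher in 3 of 10 in the treated back, with C3 at 3.43. Of all genes 27.2% were higher and 6.55% lower in the treated tail, and 13.6% and 12.6% in the treated back.

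Markers of the remaining cell types were as follows in treated against control skin, beside the same shares of all genes. Of Langerhans and dendritic markers 1 of 7 was higher and 1 lower in the tail, and 6 of 7 were lower in the back. Hair follicle markers were higher in 4 of 4 cases in the tail and lower in 2 of 7 in the back. Adipocyte markers were higher in 4 of 4 in the tail and 1 of 5 in the back. Mast cell markers were higher in 3 of 5 in the tail, and 2 higher and 1 lower of 5 in the back. Schwann cell markers were lower in 1 of 5 in the tail and higher in 1 of 5 in the back. Skeletal muscle markers were higher in 5 of 7 and smooth muscle markers in 3 of 5 in the tail. Of the latter, Cspg4 was lower there, at -1.21. Macrophage markers were higher in 2 of 5 in the tail. Of suprabasal keratinocyte markers only Ivl had a tail value, 0.09, while Krt2 and Ivl differed by -6.54 and -1.98 in the back. Of basal keratinocyte markers only Trp63 had a value, 0.81 in the back. With spike-in scaling, 0 of 4 hair follicle, 0 of 4 adipocyte and 0 of 6 mast cell markers were higher in the tail.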
